A study of Mus musculus with 15 samples.

Results

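TRAJ13-end loops are the T cell receptor (TCR) alpha CDR3 peptides that end in SGTYQR, the residues that the mouse joining segment TRAJ13 adds to the end of the loop. They were chosen by their last 6 residues alone, as read in the libraries. Read counts entered the choice of single peptides only in that a peptide had to be listed, which took at least 2 reads. Of 92219 distinct CDR3 peptides in 15 libraries, 968 (1.05%) ended this way. The class itself was chosen with earlier results of these data known. The number and shares of its loops are therefore given as descriptions, without a test.

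TCR alpha chains were read from sorted CD8 T cells of male C57BL/6 mice. All groups carry TCRbtg, a fixed transgenic TCR beta chain, and receptors of different cells are told apart by their alpha chain. The 5 Naive libraries (CD8b+ CD4neg CD44lo CD122neg) and the 5 MP libraries (memory phenotype, CD8b+ CD4neg CD44hi CD122+) came from spleen and lymph nodes, pooled, of TCRbtg mice aged 9 weeks, after magnetic enrichment of CD8 T cells. The 5 Tumour libraries came from prostate tumours of TCRbtg TRAMP+/- mice aged 27 weeks, where the prostate lobes were digested with enzymes and CD8b+ CD4neg cells were sorted with no CD44 or CD122 gate. TRAMP is a transgene that drives prostate cancer in mice. Tissue, age, genotype and gate differ together between Tumour and the other groups and cannot be told apart. The loops are written without the conserved residues that flank them, and a share is the percentage of a library's reads that a loop took. Fewer cells of a clone and less receptor RNA per cell cannot be told apart in such shares.

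The CDR3 is the part of the alpha chain that lies over the centre of the peptide presented by an MHC molecule. Its first residues come from a variable (V) segment and its last residues from a joining (J) segment. The residues between them are set by trimming of the segment ends and by bases added without a template at the join. In the TRAJ13 segment an asparagine (N) precedes SGTYQR, as general knowledge has it, so that a loop ending NSGTYQR has kept more of the segment and a loop with another residue there has been trimmed or altered at the join. In the RefSeq gene table of GRCm38.p6, Traj13 is a J segment on chromosome 14 that lies between the pseudogene Traj14 and Traj12. Segments at this end of the locus are as a rule reached by rearrangements that follow earlier ones on the same chromosome.

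The libraries held 547665 to 943699 reads. They listed 14914 to 29559 distinct CDR3s in Naive, 2216 to 13950 in MP and 934 to 2657 in Tumour. The labels give no number of sorted cells. MP 1 and MP 5 stood apart from the other MP libraries, with 235 and 236 TRAJ13-end loops against 59 to 69. Only TCR alpha was measured, so the markers used for the sorts could not be checked. The iNKT invariant loop reached at most 5 reads in a library and had 0 in tumours, and the MAIT motif had 81 to 152 reads in Naive, 0 to 38 in MP and 0 to 60 in Tumour libraries. The labels name 5 different mice for the Naive and MP cells and do not say which libraries share a mouse.

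The 8 loops with the highest mean share in Naive libraries follow first, then those in MP, then those in Tumour libraries, since most values below are given for them.
Naive rank 1: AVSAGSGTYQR
Naive rank 2: AISNSGTYQR
Naive rank 3: ASNSGTYQR
Naive rank 5: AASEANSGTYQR
Naive rank 6: ATHSGTYQR
Naive rank 7: AIGNSGTYQR
MP rank 1: APSNSGTYQR
MP rank 2: ALSGTYQR
MP rank 3: ANSGTYQR
MP rank 4: ALGSGTYQR
MP rank 5: ALSSGTYQR
MP rank 6: APSANSGTYQR
MP rank 7: APNSGTYQR
MP rank 8: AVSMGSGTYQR
Tumour rank 1: ATNSGTYQR
Tumour rank 2: AIDRRDSGTYQR
Tumour rank 3: APSNSGTYQR
Tumour rank 4: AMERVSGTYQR
Tumour rank 5: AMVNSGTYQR
Tumour rank 6: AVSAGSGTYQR
Tumour rank 7: AVNSGTYQR
Tumour rank 8: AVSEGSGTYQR

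The Naive loops of ranks 8 and 4 are relatives of rank 5 and are given by their substitutions, with positions counted from the first residue of the loop. Rank 8 differs from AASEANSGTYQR by E4A, and rank 4 differs from rank 8 by A5G. No loop is in the leading 8 of both Naive and MP, which was not compared with other CDR3s. Tumour shares APSNSGTYQR with the MP list and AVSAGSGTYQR with the Naive list. The leading MP loops are short, and 3 of the 8 begin with alanine and proline (AP). The leading Naive loops include 3 of the form AAS, any 2 residues, NSGTYQR.

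**Figure D1:**
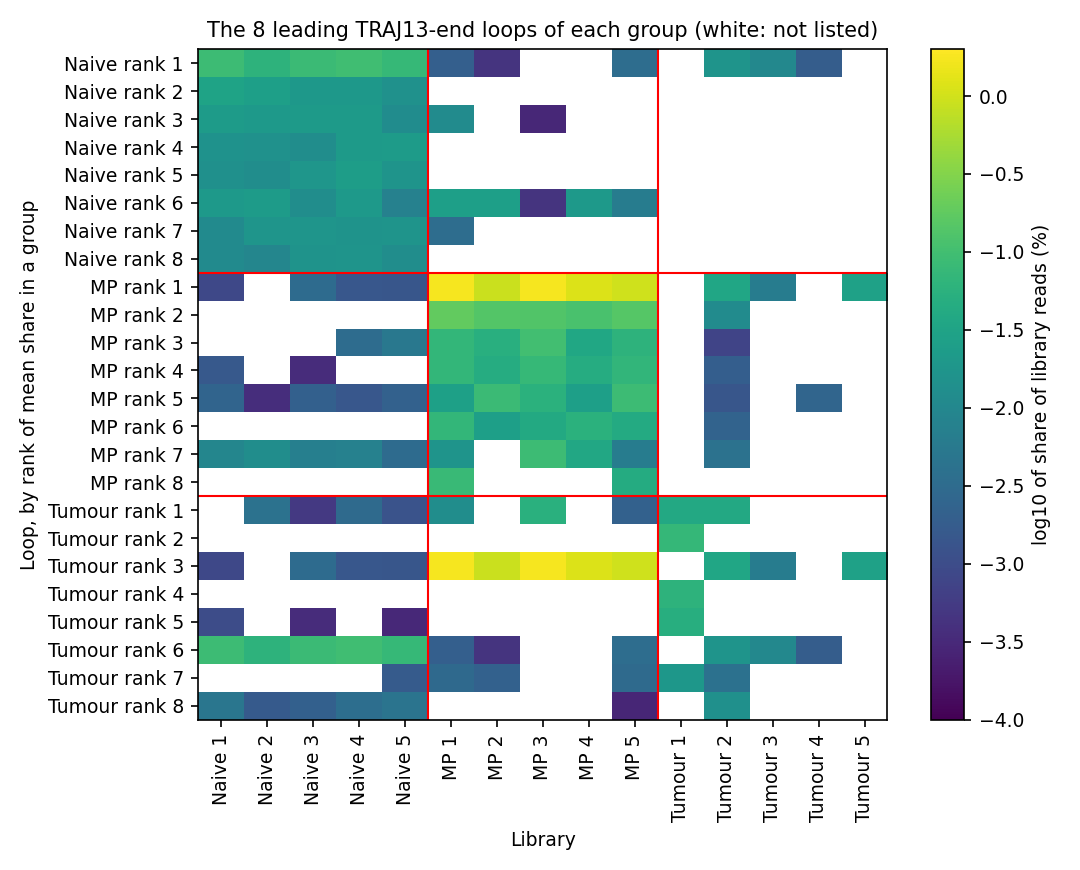
Share of library reads (colour, log10 of the percentage) of the 8 loops with the highest mean share in Naive, MP and Tumour, in rank order as listed in the text, across the 15 libraries; white marks a loop that a library does not list. APSNSGTYQR (MP rank 1) took 0.904 to 1.75% of reads in MP libraries, and 5 of the 8 leading Naive loops were listed in no more than 1 MP library.

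As a class, TRAJ13-end loops took a larger share of reads in MP than in Naive libraries and the smallest share in tumours. In Naive libraries 1 to 5 they took 0.482, 0.464, 0.469, 0.526 and 0.463% of reads (0.481 ± 0.0263%, SD, n = 5). In MP libraries 1 to 5 they took 2.83, 1.56, 2.67, 2.16 and 1.85% (2.21 ± 0.538%, n = 5), 4.61 times the Naive mean. In Tumour libraries 1 to 5 they took 0.267, 0.180, 0.0311, 0.0147 and 0.0298% (0.104 ± 0.113%, n = 5), and without Tumour 1 the mean was 0.0639%. No MP library overlapped the Naive range and no Tumour library reached it, and the 5 Naive libraries lay close together while the tumours differed among themselves. Among all 6-residue ends, ranked by mean share, SGTYQR stood at 29 of 2347 in Naive, at 12 of 2117 in MP and at 40 of 355 in Tumour.

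Much of the MP share was 1 loop. Without APSNSGTYQR, the other loops took 0.894 ± 0.156% of MP reads (0.653 to 1.08%) and 0.479 ± 0.0263% of Naive reads, a ratio of 1.86, still with no overlap between the groups. Counted by distinct loop rather than by read, TRAJ13-end loops made up 1.69 to 2.66% of the CDR3s of MP libraries (2.07 ± 0.422%), 0.864 to 0.972% of those of Naive libraries (0.903 ± 0.0432%) and 0.205 to 1.05% of those of tumours (0.545 ± 0.392%). MP and Naive did not overlap by this count either, and Tumour overlapped Naive. Some rare loops lie 1 substitution from a loop at least 100 times as abundant in the same library, where they may be misread copies of it. These were 11.0 to 40.7% of the distinct TRAJ13-end loops of MP libraries and 0 to 1.40% of those of Naive libraries. With all such CDR3s folded into the more abundant one, the class made up 1.63 to 2.42% of the CDR3 list in MP libraries and 0.916 to 1.05% of it in Naive libraries.

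**Figure D2:**
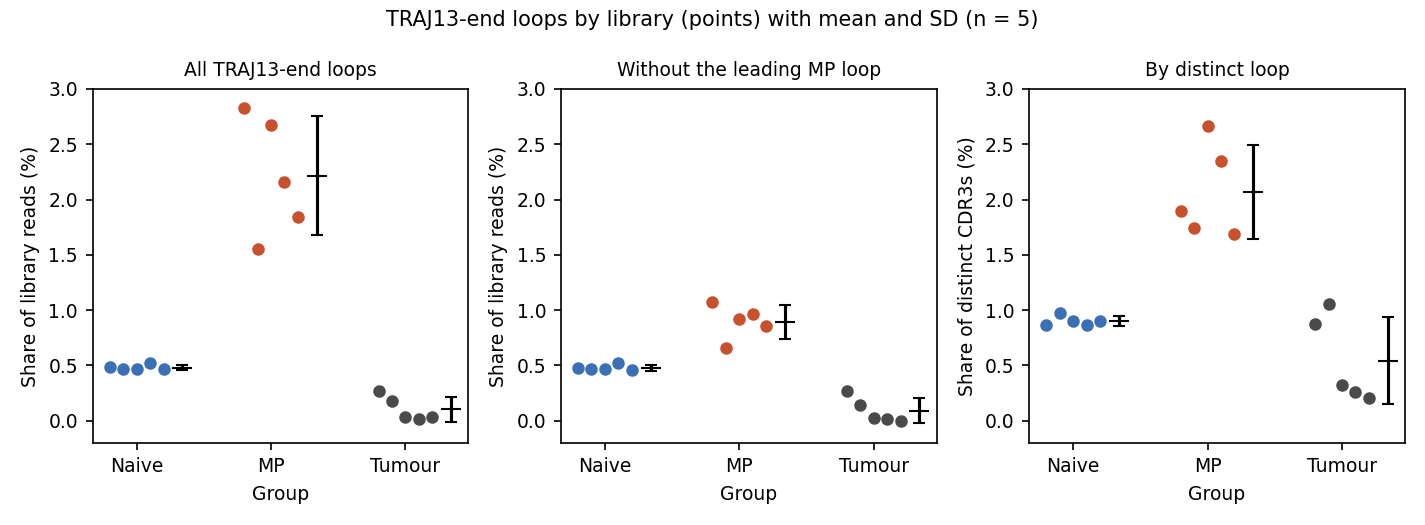
TRAJ13-end loops in each library (points) with the mean and SD of 5 libraries (bars), as a percentage of library reads for all loops, as a percentage of reads without APSNSGTYQR, the leading MP loop, and as a percentage of distinct CDR3s. In all 3 panels the 5 MP points lie above the 5 Naive points.

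For context, the ends of neighbouring J segments were counted in the same way. TRAJ18-end loops had mean shares of 0.129% in Naive and 0.637% in MP, a ratio of 4.93, with MP libraries from 0.393 to 1.45%. The ratio of MP to Naive was 0.818 for TRAJ17, 0.529 for TRAJ16, 0.694 for TRAJ15, 1.28 for TRAJ12 and 1.05 for TRAJ11. A larger MP share was thus seen for TRAJ18 as well as for TRAJ13 and the ratios of TRAJ12 and TRAJ11, on the other side of Traj13, lay nearer to 1. In tumours the mean shares were 0.166% for TRAJ16, 1.98% for TRAJ15, 2.38% for TRAJ12 and 0.839% for TRAJ11, against 0.577, 2.25, 0.464 and 0.216% in Naive libraries. For TRAJ18 and TRAJ17 they were 0.375 and 0.972% in tumours against 0.129 and 0.873% in Naive. The Tumour and Naive ranges of all these neighbouring segments overlap. None of these differences was tested.

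The reads of the class were spread over many loops in Naive and concentrated in a few in MP. The effective number of loops, which is the exponential of the Shannon entropy of their read shares, was 61.7 to 75.0 in Naive (68.4 ± 6.15), 5.45 to 12.1 in MP (8.50 ± 2.56) and 1.08 to 13.1 in Tumour libraries (5.41 ± 4.69). The most abundant loop was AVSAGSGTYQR in all 5 Naive libraries, with 13.1 to 18.4% of TRAJ13-end reads. It was APSNSGTYQR in all 5 MP libraries, with 53.6 to 65.5% of them. The leading loop differed in each of the 5 tumours, and in Tumour 5 it was APSNSGTYQR. Naive libraries held 145 to 257 distinct loops and MP libraries 59 to 236, which overlap.

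Most loops were listed in 1 library of a group, but those in all 5 Naive or MP libraries held most of the reads. Of 670 loops listed in any Naive library, 469 were in 1 library each. The 42 that were in all 5 held 66.5 ± 3.11% of TRAJ13-end reads. Of 418 loops listed in MP, 298 were in 1 library each, and the 15 in all 5 held 79.5 ± 4.76%. Recurrence was not compared with that of other CDR3s. Of 42 loops listed in tumours, 0 were in all 5 and 36 were in 1 tumour each. Naive and MP shared 137 loops, which are 32.8% of the MP list and 20.4% of the Naive list. Over all CDR3s these shares were 42.5% and 14.6%.

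MP loops were shorter. The mean length per read was 9.77 ± 0.0959 residues in MP and 10.7 ± 0.0823 in Naive libraries, with no overlap, and MP less Naive was -0.942 residues. For all other CDR3s the MP mean was 10.9 ± 0.0519 and the Naive mean 11.2 ± 0.0359, a difference of -0.320. Loops of at most 10 residues took 88.6 ± 3.48% of TRAJ13-end reads in MP and 38.4 ± 3.91% in Naive. Without APSNSGTYQR, which has 10 residues, they took 72.1 ± 8.10% in MP and 38.2 ± 3.99% in Naive, again with no overlap. Loops of 8 residues, hardly longer than the shared end itself, took 11.4 ± 2.18% in MP and 1.45 ± 0.504% in Naive. Loops of 12 residues took 2.14 ± 1.52% in MP and 27.3 ± 3.62% in Naive.

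**Figure D3:**
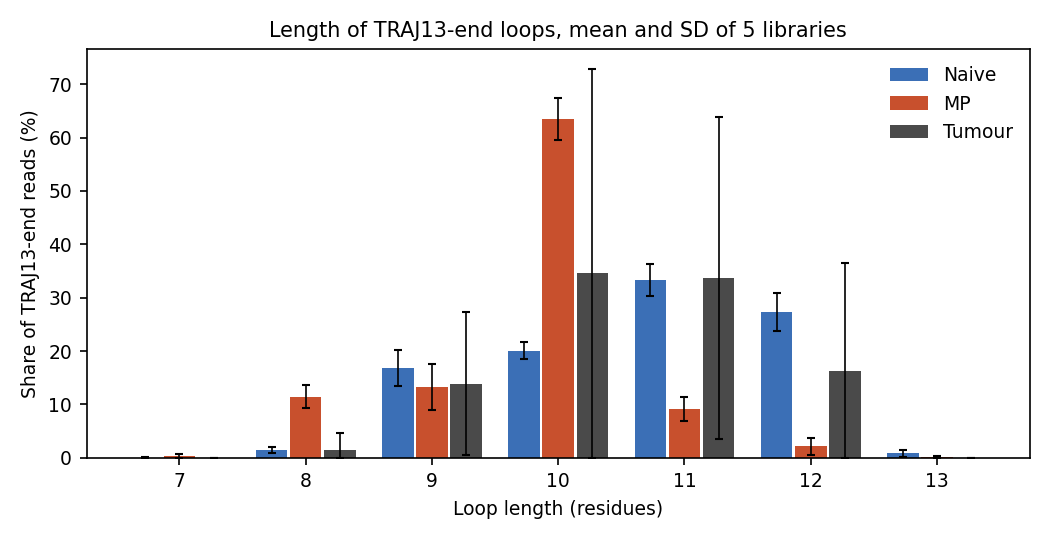
Share of TRAJ13-end reads (%) by loop length in residues, as the mean (bars) and SD (error bars, which stop at 0) of 5 libraries in Naive, MP and Tumour; the rare loops of 6, 14 and 15 residues are not drawn. MP reads peaked at 10 residues with 63.6%, and Naive reads lay mostly at 11 (33.3%) and 12 (27.3%).

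The net charge, counted as K and R less D and E, was 0.956 ± 0.00907 per read in MP and 0.771 ± 0.0145 in Naive TRAJ13-end loops, with no overlap. Without APSNSGTYQR it was 0.893 ± 0.0197 in MP and 0.771 ± 0.0150 in Naive. For all other CDR3s it was 0.607 ± 0.00850 in MP and 0.534 ± 0.0155 in Naive, so that MP was higher outside the class too. Neither of these counts overlapped between the groups. The shared end itself adds 1 positive charge through its arginine. The residue before the end depended on what was counted. By reads, N stood there in 75.4 ± 4.27% in MP and 61.2 ± 1.90% in Naive. By distinct loop it stood there in 52.8 ± 4.30% in MP and 60.2 ± 1.42% in Naive, and by reads without APSNSGTYQR in 40.2 ± 6.55% and 61.1 ± 1.91%. MP and Naive did not overlap in any of these 3 counts, and MP was above Naive only in the count by all reads. None of the 3 was tested.

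The start of the loop differed between MP and Naive as well. V segments cannot be assigned from peptides. In short loops such as ANSGTYQR the residue after the first alanine may come from the join or the J segment. AP began 59.4 to 72.9% of TRAJ13-end reads in MP and 1.83 to 4.05% in Naive. Without APSNSGTYQR it began 7.59 to 21.4% and 1.53 to 3.47% of them. Among all other CDR3s, AP began 3.29 ± 0.554% of MP reads and 2.11 ± 0.101% of Naive reads. By distinct loop, AP began 10.6 to 27.1% of MP and 1.38 to 5.06% of Naive TRAJ13-end loops, and 6.86 to 16.9% and 1.38 to 5.12% after folding. In each of these counts the groups did not overlap.

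Other starts are given as shares of all TRAJ13-end reads and then without APSNSGTYQR, whose reads lower every other start's share in MP. AA began 24.3 ± 5.08% of Naive TRAJ13-end reads, with no library under 17.7%, and 0.290 to 1.82% of those in MP. AV began 20.6 ± 2.05% in Naive and 2.85 ± 2.26% in MP, and AI 13.2 ± 1.94% and 0.541 ± 0.775%. The ranges of the AL start overlapped, with 12.9 to 17.0% in Naive and 11.9 to 23.8% in MP. Without APSNSGTYQR, AA began 0.652 to 4.80% of MP reads, AV 1.23 to 13.8% and AI 0 to 4.09%, all still below the Naive ranges, which changed little. AL then began 34.5 to 56.6% of MP reads and 12.9 to 17.1% of Naive reads, with no overlap, and AM 6.90 to 14.4% and 4.79 to 11.5%, which overlap. Tumours ranged widely in the share of all TRAJ13-end reads, from 0 to 46.2% for AA and from 0 to 100% for AP.

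Single loops were tested between groups with edgeR's quasi-likelihood test, fitted to every CDR3 that reached 10 reads in 3 or more of the 10 libraries compared. Adjusted p-values are Benjamini-Hochberg values over all CDR3s tested, and a loop is called at an adjusted p under 0.05. Log2 fold changes are given with their standard error. The 3 comparisons share groups, since each group enters 2 of them. For MP against Naive, 75 of 968 TRAJ13-end loops could be tested, and they held 83.4 to 95.7% of TRAJ13-end reads in MP and 63.5 to 73.0% in Naive libraries. Of these loops, 34 passed the filter in MP alone and 32 in Naive alone, and a loop that passes in 1 group alone nearly had to differ. The counts below describe the tested loops and not all 968.

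In MP, 27 of the 75 tested loops rose (36.0%, against 12.6% of all CDR3s tested) and 25 fell (33.3%, against 48.1% of all). The median log2 change of the tested loops was 1.82, and that of all tested CDR3s was -3.35. Of the 27 that rose, 13 were not listed in any Naive library (48.1%, against 46.9% of all CDR3s that rose). Of the 25 that fell, 18 were not listed in any MP library (72%, against 74.7% of all that fell). Loops of at most 10 residues were 46 of the 75 tested (61.3%), 20 of the 27 that rose (74.1%) and 10 of the 25 that fell (40%), and among all CDR3s they were 32.4% of those tested, 55.9% of those that rose and 25.4% of those that fell. Without MP 1 and MP 5, 47 loops could be tested, of which 8 rose (17.0%, against 7.31% of all tested CDR3s) and 31 fell (66.0%, against 70.6%). Only 5 loops passed the filter in both groups, and among them ALSGTYQR's longer relative ALSSGTYQR rose and the other 4 had no call.

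**Figure D4:**
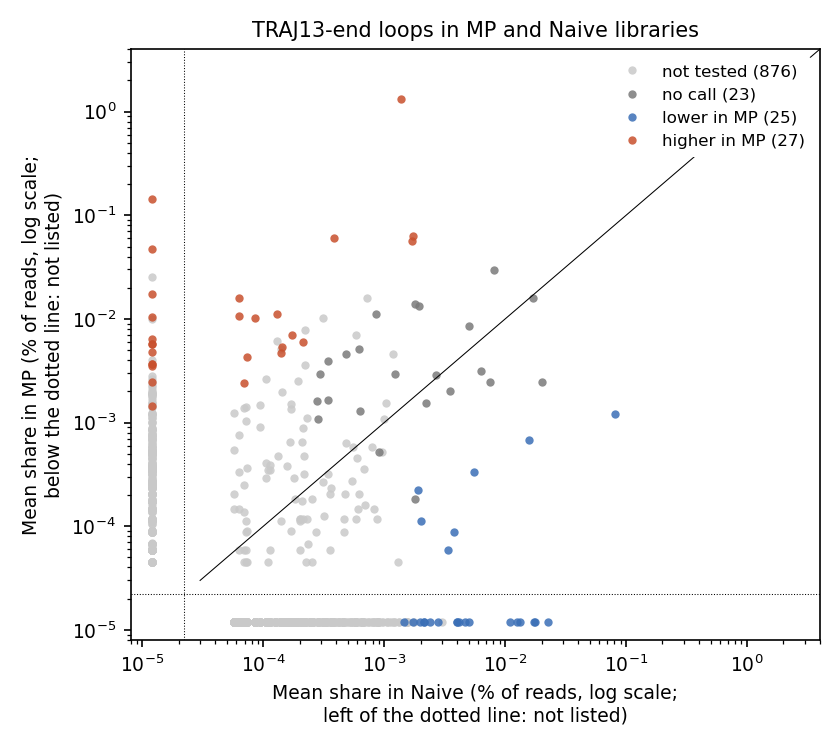
Mean share of reads of each of the 951 loops listed in Naive or MP libraries, Naive on the x axis and MP on the y axis, both in % on log scales, with loops not listed in a group placed beyond the dotted lines and the diagonal marking equal shares. Of these loops, 876 were not tested, 23 had no call, 25 were lower in MP and 27 higher; APSNSGTYQR is the highest point.

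APSNSGTYQR had the largest share of any loop of the class. It took 1.75, 0.904, 1.75, 1.20 and 0.990% of reads in MP libraries 1 to 5, and 0.000854, 0, 0.00313, 0.00145 and 0.00141% in Naive libraries 1 to 5. The lowest MP library was far above the highest Naive library. It rose in MP by 9.89 ± 1.16 on the log2 scale (edgeR adjusted p = 0.000662), a ratio of mean shares of 963. The loop joins AP and a serine to NSGTYQR, the longer TRAJ13 end.

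Relatives of this loop with another second residue were all listed in Naive, and some of them in MP too. In all, 31 loops of the class differ from APSNSGTYQR by 1 substitution, of which 19 were listed in Naive and 19 in MP. The 13 that differ at position 2 were all listed in Naive and 4 of them in MP. Of all CDR3s listed in Naive, 14.6% were also listed in MP, so that these relatives were not listed in MP less often. AISNSGTYQR (P2I) took 0.0315, 0.0265, 0.0197, 0.0199 and 0.0149% of reads in Naive libraries 1 to 5 and was listed in no MP or Tumour library. It fell in MP at least 51.4-fold, measured against 3 reads per MP library (edgeR adjusted p = 0.000662). ATSNSGTYQR (P2T) took 0.00555% in Naive and 0.000337% in MP on average and fell by 3.95 on the log2 scale (edgeR adjusted p = 0.0105). Of the form A, any residue, SNSGTYQR, a family grouped after the values were seen, all 14 loops were listed in Naive and 5 in MP, and of the 3 tested APSNSGTYQR rose while the other two fell.

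Other AP loops rose beside it. APSANSGTYQR, with 1 alanine more, took 0.0714, 0.0264, 0.0412, 0.0555 and 0.0427% of reads in MP libraries 1 to 5 and was not listed in Naive, at least 94.5-fold higher in MP (edgeR adjusted p = 0.000662). APPANSGTYQR took 0.0142, 0.00132, 0.0299, 0.0245 and 0.00921% in MP and 0.000314% in Naive 5 alone, a log2 change of 7.56 ± 1.48 (edgeR adjusted p = 0.00171) and, without Naive 5, a fitted 9.69 against 0 reads, which is not a bound. APNSGTYQR, in which proline directly precedes the segment's end, took 0.0166, 0, 0.0886, 0.0374 and 0.00643% in MP and 0.00314 to 0.0126% in Naive, ranges that overlap. Its log2 change of 1.89 ± 1.30 did not pass the test (edgeR adjusted p = 0.242), and without MP 2, which does not list it, the p was 0.0379.

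In all, 9 of the 11 tested AP loops rose in MP, against 12.6% of all tested CDR3s, where the AP start was not counted apart. All 9 passed the filter in MP alone, so that they nearly had to rise. APNSGTYQR, the only AP loop that passed in both groups, had no call. The count only describes the tested loops. Of these 9, 4 (APINSGTYQR, APPNSGTYQR, APSGSGTYQR and APVNSGTYQR) lie 1 substitution from APSNSGTYQR and had a mean MP share at most a hundredth of its own. VPSNSGTYQR, which also rose, lies as near, so that 5 of the 27 loops that rose may hold misread copies of APSNSGTYQR, which was not tested. These 5 were chosen for mention after their values were seen. The other 22 have no such neighbour, and 5 of them begin with AP, among them APNANSGTYQR and APTANSGTYQR.

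A second group of MP loops was very short. ALSGTYQR, whose only residues before the shared end are alanine and leucine, took 0.183, 0.142, 0.134, 0.118 and 0.144% of reads in MP libraries 1 to 5, a mean of 0.144 ± 0.0241%. No Naive library listed it, and it was at least 287-fold higher in MP (edgeR adjusted p = 0.000662). ANSGTYQR, which differs from it by L2N, took 0.0692, 0.0525, 0.0987, 0.0362 and 0.0595% in MP. Naive 4 and 5 listed it at 0.00326 and 0.00534%, and it rose by 5.18 ± 1.66 (edgeR adjusted p = 0.0215), or by 6.25 without Naive 5.

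ALGSGTYQR and ALSSGTYQR, which differ by G3S, add 1 residue to ALSGTYQR. ALGSGTYQR took 0.0700, 0.0464, 0.0751, 0.0458 and 0.0675% of reads in MP libraries 1 to 5 and was listed in Naive 1 (0.00157%) and Naive 3 (0.000348%), a rise of 7.22 ± 1.49 (edgeR adjusted p = 0.00227), or of 9.16 without Naive 1. ALSSGTYQR took 0.0282, 0.0845, 0.0554, 0.0263 and 0.0880% in MP and 0.000365 to 0.00242% in Naive, where all 5 libraries listed it. It rose by 5.03 ± 0.78 (edgeR adjusted p = 0.000663), and the lowest MP library was above the highest Naive library. In all, 6 of the 27 loops that rose begin with AL, but 5 of the 25 that fell do too.

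Loops trimmed 1 residue further, which end in GTYQR with no serine before it, lie just outside the rule and are described without a test of the group. There were 181 of them, and they took 0.0219 to 0.0316% of reads in Naive, 0.170 to 0.318% in MP and 0 to 0.0649% in Tumour libraries. Of the 14 tested, 10 rose and 4 fell in MP, where 12.6% of all tested CDR3s rose and 48.1% fell. How many of the 14 passed the filter in 1 group alone was not counted. The most abundant were ALSGGTYQR at 0.0652 ± 0.0345%, ALPGTYQR at 0.0353 ± 0.0195% and ALSFGTYQR at 0.0294 ± 0.0111% of MP reads, and none of them was listed in Naive or Tumour libraries.

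Some MP loops were less even across libraries. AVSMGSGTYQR took 0.0830% of reads in MP 1 and 0.0446% in MP 5 and was listed in no other library, so that it was not tested. It differs from the leading Naive loop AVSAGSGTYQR by A4M. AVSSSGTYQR took 0.0196, 0.0201, 0.0290, 0 and 0.0184% in MP libraries 1 to 5 and was not listed in Naive, at least 34.7-fold higher in MP (edgeR adjusted p = 0.00861).

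The leading Naive loop fell in MP. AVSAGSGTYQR took 0.0887, 0.0606, 0.0857, 0.0945 and 0.0748% of reads in Naive libraries 1 to 5, and 0.00204, 0.000440, 0, 0 and 0.00351% in MP libraries 1 to 5. The groups lay far apart, with a log2 change of -6.05 ± 1.41 (edgeR adjusted p = 0.00470) and a Naive mean 67.5 times the MP mean. Its relative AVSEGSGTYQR (A4E) took 0.00164 to 0.00484% in Naive and was listed in MP 5 alone, a change of -5.44 ± 1.16 (edgeR adjusted p = 0.00270). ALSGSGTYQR, also with a glycine before the shared end, took 0.00146 to 0.00456% in Naive and 0.000439% in MP 5 alone, a change of -5.16 ± 1.24 (edgeR adjusted p = 0.00559). Without MP 5 the fitted changes of these 3 loops were -6.95, -7.45 and -7.62, and each kept its call. The last 2 are then listed in no MP library, and a fitted change against 0 reads is not a bound.

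Loops of the form AAS, any 2 residues, NSGTYQR were a Naive family, grouped after the values were seen. It has 25 loops, of which 24 were listed in Naive and 2 in MP. Of all CDR3s listed in Naive, 14.6% were also listed in MP. The family held 14.5 to 25.3% of the TRAJ13-end reads of Naive libraries. Of the 10 tested, 8 fell in MP and 0 rose, against 48.1% and 12.6% of all tested CDR3s. No loop of the family was in more than 2 MP libraries, so that none could pass the filter without Naive reads. Falls were thus nearly fixed in advance, and the count only describes the tested loops. The most abundant, Naive rank 4, took 0.0157, 0.0152, 0.0129, 0.0217 and 0.0226% of reads in Naive libraries 1 to 5, at least 40.2-fold more than in MP. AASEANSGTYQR took 0.0173 ± 0.00452% of Naive reads, at least 39.5-fold more, and its E4A relative, Naive rank 8, took 0.0134 ± 0.00311%, at least 30.5-fold more. None of these 3 was listed in any MP or Tumour library, and each fell in MP with an edgeR adjusted p of 0.000662.

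All 6 tested loops that begin with AI fell in MP, against 48.1% of all tested CDR3s, where this start was not counted apart. Loops that passed the filter in Naive alone, as AISNSGTYQR and AIGNSGTYQR did, nearly had to fall. The count only describes the tested loops and is no result about this start. Besides AISNSGTYQR, the most abundant of the 6 was AIGNSGTYQR, at 0.0112, 0.0173, 0.0174, 0.0161 and 0.0168% in Naive and 0.00340% in MP 1 alone. Its change of -4.47 ± 1.71 (edgeR adjusted p = 0.0435) was not called without any 1 Naive library (p from 0.0694 to 0.0764), without MP 3 (0.0503), without MP 4 (0.0536) or without MP 5 (0.0539). Without MP 1, the only MP library that lists it, the fitted change, against 0 reads and so not a bound, was -9.63 (edgeR adjusted p = 0.000514). ASNSGTYQR took 0.0232, 0.0210, 0.0221, 0.0223 and 0.0121% in Naive, and 0.0119% in MP 1 and 0.000299% in MP 3. Its change of -3.03 ± 1.74 did not pass (edgeR adjusted p = 0.161), and without MP 1 it was -7.72 with a p of 0.000934.

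ATHSGTYQR, the sixth Naive loop by share, was listed in all 10 libraries of both groups. It took 0.0206, 0.0226, 0.0127, 0.0210 and 0.00786% of reads in Naive and 0.0268, 0.0264, 0.000448, 0.0202 and 0.00629% in MP, which overlap. The log2 change was -0.08 ± 0.89 (edgeR adjusted p = 0.946), and its sign differed between fits that left out 1 library.

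Tumour libraries held few TRAJ13-end loops. Tumour libraries 1 to 5 listed 13, 28, 3, 4 and 2 of them, on 1991, 1403, 195, 120 and 281 reads. Against MP, 41 loops could be tested, of which 0 rose (7.68% of all tested CDR3s rose) and 34 fell (82.9%, against 66% of all). Against Naive, 40 could be tested, of which 0 rose (3.38% of all rose) and 33 fell (82.5%, against 86.7% of all). No loop rose at an unadjusted edgeR p under 0.05 in either comparison, and DESeq2 also called 0. In each comparison, however, only 1 loop passed the filter in Tumour alone and 1 in both groups. The filter thus left hardly any loop that could rise, and the 0 cannot be read against the shares of all CDR3s. The median log2 change was -7.76 against MP, where that of all CDR3s was -7.57, and -7.26 against Naive, where it was -7.42.

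These falls were mostly of loops that tumours did not list. Of the 34 that fell against MP, 27 were listed in no tumour (79.4%, against 89% of all CDR3s that fell), and of the 33 that fell against Naive, 32 were listed in none (97.0%, against 94.2%). Of the 41 loops tested against MP, 38 passed the filter in MP alone, and 36 of the 40 tested against Naive passed in Naive alone. Without MP 1 and MP 5, 13 loops could be tested against MP and 3 fell (23.1%, against 35.0% of all tested CDR3s).

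APSNSGTYQR was listed in 3 tumours, at 0.0357% of reads in Tumour 2, 0.00638% in Tumour 3 and 0.0294% in Tumour 5. Their 95% Wilson intervals, which cover counting error only, were 0.0317 to 0.0402%, 0.00468 to 0.00868% and 0.0261 to 0.0330%. In Tumour 5 it was 98.6% of TRAJ13-end reads. All 5 tumours lay below all MP libraries, and the 3 that listed it lay above all Naive libraries. It fell against MP, with a log2 change of -6.53 ± 2.15 (edgeR adjusted p = 0.0183), a call that was lost without MP 1 and MP 5 (edgeR adjusted p = 0.0569). Without Tumour 2 the change against MP was -7.20. Against Naive the log2 change was 3.37 ± 1.75 and did not pass (edgeR adjusted p = 0.0911), but it passed in the fits without Tumour 1 or without Tumour 4, which do not list it (edgeR adjusted p = 0.0361 in each).

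Other leading MP loops were seen mainly in Tumour 2. It listed ALSGTYQR at 0.0119%, APNSGTYQR at 0.00411%, APSANSGTYQR at 0.00231%, ALGSGTYQR at 0.00193% and ANSGTYQR at 0.000771% of reads, and no other tumour listed any of these 5. Against MP, the log2 change of ANSGTYQR was -8.53 ± 2.27 (edgeR adjusted p = 0.0151), that of ALGSGTYQR -7.24 ± 2.32 (edgeR adjusted p = 0.0183) and that of APSANSGTYQR -6.63 ± 2.31 (edgeR adjusted p = 0.0195). All 3 fell. The calls of ALGSGTYQR and APSANSGTYQR were lost without MP 1 and MP 5 (edgeR adjusted p = 0.0521 and 0.0693). ALSGTYQR changed by -5.91 ± 2.45 (edgeR adjusted p = 0.0438), and this call was lost in every fit that left out 1 library (edgeR adjusted p from 0.0546 to 0.0759) except the fit without Tumour 2. Without Tumour 2, no tumour lists these 4 loops, and their fitted changes, which are not bounds, were -11.86, -11.81, -11.45 and -13.05. ALSSGTYQR was the exception, at 0.00141% of reads in Tumour 2 and a higher 0.00257% in Tumour 4. It fell against MP with a log2 change of -6.12 (edgeR adjusted p = 0.0202). This call was lost with no filter, with the replicate block and without MP 1 and MP 5 (edgeR adjusted p = 0.0541, 0.0715 and 0.0624).

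Of the loops called in MP against Naive, 8 of the 27 higher in MP (29.6%) and 3 of the 25 lower in MP (12%) were listed in any tumour, against 28.7% and 8.24% of all CDR3s called. Tumour 2 held 7 of the first and 3 of the second. By list, tumours shared 21 of their 42 loops with MP (50%) and 19 with Naive (45.2%), and these are 5.02% of the MP list and 2.84% of the Naive list. Over all CDR3s, tumours shared 25.7% of their list with MP and 35.0% with Naive, which are 6.21% and 2.91% of those lists. In Tumour 1, 7 of 13 loops, with 53.4% of the TRAJ13-end reads, were listed in neither, against 8 of 28 loops with 7.48% of the reads in Tumour 2.

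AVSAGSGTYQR, the leading Naive loop, took 0.0170% of reads in Tumour 2, 0.0104% in Tumour 3 and 0.00183% in Tumour 4, all below the lowest Naive library. It fell against Naive, with a log2 change of -3.79 ± 1.56 (edgeR adjusted p = 0.0396). This call was lost without any 1 Naive library (edgeR adjusted p from 0.0605 to 0.0675) and without Tumour 4 (edgeR adjusted p = 0.0654). Without Tumour 2 the change was -4.73. Against MP its log2 change was 2.26 ± 2.09 (edgeR adjusted p = 0.342). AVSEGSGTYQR took 0.0145% in Tumour 2 alone. AISNSGTYQR, ASNSGTYQR and ATHSGTYQR were listed in no tumour and fell against Naive at least 57.7-fold, 51.6-fold and 43.5-fold (edgeR adjusted p = 1.27e-05, 1.27e-05 and 2.5e-05).

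The loops that led Tumour 1, 3 and 4 were private to them, while those that led Tumour 2 and 5 were also MP and Naive loops. ATNSGTYQR, which led Tumour 2, took 0.0401% of reads in Tumour 1 (Wilson 95% interval 0.0358 to 0.0449%) and 0.0398% in Tumour 2 (0.0356 to 0.0445%), 0.0128, 0.0544 and 0.00219% in MP 1, 3 and 5, and 0.000522 to 0.00420% in 4 Naive libraries. These ranges overlap, and it passed neither the comparison with MP (log2 change 0.20 ± 2.47, edgeR adjusted p = 0.945) nor that with Naive (3.13 ± 2.09, edgeR adjusted p = 0.177).

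Tumour 1 was led by AIDRRDSGTYQR at 0.0733% (547 reads, Wilson 95% interval 0.0674 to 0.0797%), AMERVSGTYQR at 0.0597% (446 reads, 0.0545 to 0.0656%) and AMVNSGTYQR at 0.050% (373 reads, 0.0451 to 0.0553%). AIDRRDSGTYQR and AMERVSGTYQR were in no other library, and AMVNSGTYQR was also in 3 Naive libraries at no more than 0.000996%. AVNSGTYQR took 0.0190% in Tumour 1 and 0.00398% in Tumour 2, and lower shares in 3 MP libraries and in Naive 5. Tumour 3 was led by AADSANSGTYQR (90 reads, 0.0143%) and Tumour 4 by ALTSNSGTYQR (43 reads, 0.00526%), neither of which any other library listed.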

How the data were processed

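The authors deposited raw read counts, 1 list of CDR3 peptides for each library, with no normalization. RNA was amplified by iRepertoire's arm-PCR, per the labels' protocols. Aligner, CDR3 caller and error filters: not given in the sources used here. Also, no molecular identifiers are stated, so intervals cover counting error only. A loop that is not listed had fewer than 2 reads. Folds against unlisted loops use 3 reads per library (a mean share of 0.000502% for Naive, 0.000438% for MP and 0.000390% for Tumour) and are lower bounds, unless an unstated filter removed the loop.

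Each pair of groups was fitted alone with edgeR 4.0.16 (limma 3.58.1, R 4.3.3), robust quasi-likelihood, with total reads as library size and no library pairing. The standard error is the log2 change divided by the square root of the F statistic. The code was tested on simulated counts. Alternatives were TMM, DESeq2 1.42.0, filters of 50 reads and of 1 read in 2 libraries (no filter), leaving out each library, a block for the library number, and calls at a fold of 2 or more. The design text names different mice, though labels do not say which Naive and MP libraries share one, and p-values measure the spread between these libraries. Descriptive values were computed in python 3.11.15.

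The class of loops, the lists and the tests were chosen with earlier results of these data known. Named were the 8 loops with the highest mean share per group, the top loop of each library, and per comparison the 3 largest called changes each way among loops listed in both groups, with the 2 most abundant called loops that the other group does not list. Families, folding counts, neighbours, shares over all CDR3s, starts without APSNSGTYQR and fits that drop MP 1 with MP 5 were chosen after values were seen. Segment ends other than names and order are from general knowledge.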

Additional observations from a re-analysis of the deposited data

Results flagged for a closer look

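In 9 of 64 groups of 5 libraries examined, 1 library lay far from the other 4 by Dixon's ratio. For independent, normally spread values chance alone does this in about 1 group in 20. Some of these groups hold shares of 0 and related quantities, so that the 9 cannot be read against that rate. AP began 100% of TRAJ13-end reads in Tumour 5 and 0 to 23.7% in the other tumours, on 281 reads. Loops ending GTYQR without a serine took 0.0649% of reads in Tumour 2 and 0 to 0.00201% in the others. AVNSGTYQR took 0.0190% in Tumour 1 and at most 0.00398% in the others. In MP, ASNSGTYQR took 0.0119% in MP 1 against at most 0.000299% elsewhere, and ATNSGTYQR 0.0544% in MP 3 against at most 0.0128%. In Naive, ALGSGTYQR was high in Naive 1 (0.00157%, others at most 0.000348%). AIGNSGTYQR was low in Naive 1 (0.0112%, others at least 0.0161%), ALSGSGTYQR was low in Naive 2 (0.00146%, others at least 0.00398%) and ASNSGTYQR was low in Naive 5 (0.0121%, others at least 0.0210%). Naive 2 is the Naive library with the fewest reads and the fewest distinct CDR3s.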

How the results depend on the processing

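Depth limits what can be tested. Only 75, 41 and 40 of 968 loops could be fitted in MP against Naive, Tumour against MP and Tumour against Naive, and tumour loops rest on 120 to 1991 reads. TMM, DESeq2 and a fold of at least 2 kept the counts of calls within 1.5 times. For MP against Naive, 27 loops rose and 25 fell. With 50 reads these were 10 and 8, with no filter 69 and 116, and without MP 1 and MP 5 8 rose, with 31 lower. With 1 library left out, 20 to 27 rose and 18 to 29 fell. The 34 loops lower in Tumour against MP became 12 with 50 reads, 105 with no filter, 3 without MP 1 and MP 5, and 23 to 36 with 1 library left out. The 33 loops lower against Naive became 9 with 50 reads, 187 with no filter (with 1 higher), and 24 to 36 with 1 library left out, where 0 to 1 rose.

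With the library number as a replicate block, 23 rose and 24 fell in MP, 4 fell in Tumour against MP and 35 in Tumour against Naive. Same-numbered Naive and MP libraries hardly deviated together (r from 0.0125 to 0.0471), Naive 1 and 2 correlated best with their own number and the other 3 did not, and tumours came from other mice. The labels do not say whether these numbers mark shared mice, and the fits are without the block.

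The Naive share was 0.420% without peptides under 10 reads and 0.294% for the longer end NSGTYQR, and the distinct loops per library were 50.6 and 132. The MP share was 0.894% without APSNSGTYQR. Of 747 values of named loops, 681 kept direction and call, 38 lost a call, 11 gained one and 17 turned sign. Those that turned had no call. ATNSGTYQR in Tumour against MP was -1.17 with the replicate block, -0.18 without MP 1 and MP 5, and -0.48 to 2.08 with 1 library left out, and against Naive -2.68 with the block. With 1 library left out, ATHSGTYQR in MP against Naive was -0.35 to 0.23, AVNSGTYQR in Tumour against MP -0.72 to 1.82, and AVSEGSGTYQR in Tumour against Naive -7.53 (without Tumour 2) to 0.12. Apart from fewer loops tested under the stricter filters and left-out libraries, the cause was not tested.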
